A study of Mus musculus with 6 samples.

Results

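Gene starts in mouse mesenchymal stem cells (MSCs) carried compact domains of acetylated histone H3 (H3ac), and 8913 of them are described here: regions shorter than 20 kb that lay at the start of a protein-coding gene and were called in every group of a study of ageing. They were taken from 24431 H3ac regions, of which they made up 36.5%. A region was included when its name carried the code AC+O+Y, when it was under 20000 bp long, and when at least 1 start site of a protein-coding transcript (mm10, GENCODE M21 basic set) lay inside it or within 1 kb. The code was read as called in OldAcetate, Old and Young, which the labels do not define. It was assigned from the same 6 libraries, so the members were selected on their H3ac signal, and every difference between groups over them is given as a description.

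H3ac was measured by CUT&RUN, in which an antibody tethers a nuclease to marked chromatin and the released DNA is sequenced. The 6 libraries formed 3 groups of 2. The Young group was MSCs from mice aged 3 to 5 months with no treatment, and the Old group was MSCs from mice aged 18 to 22 months with no treatment. The OldAcetate group was MSCs from mice aged 18 to 22 months given 5 mM sodium acetate for 3 days, and all 3 groups were grown in 2% oxygen. The labels do not say whether the libraries of a group came from separate mice, so the spread between them may be technical, and strain and sex are not given in the sources used here. The comparisons ask how H3ac differs with age and how acetate, a source of acetyl groups, changes it in old cells.

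Acetylated H3 tails are typical of open chromatin, and proteins with a bromodomain bind them. Acetyltransferases add the mark, with acetyl-CoA as the donor, and deacetylases take it off. At a gene start the mark flanks the nucleosome-depleted site where RNA polymerase II assembles, and it is found at most genes that a cell keeps open. Many such starts lie in CpG islands, stretches where the CG dinucleotide has not been depleted as it has in most of the genome, while a smaller set of starts relies on a TATA box.

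The start sites of 7 members show the range of promoters in the set. For each class the member gene with the highest H3ac per kb is shown, as the 250 bases before the start and the first 30 bases of the transcript, read 5′ to 3′ on the strand of the gene from RefSeq GRCm38.p6, the same assembly as mm10. Capitals mark the letters named for each. D630036H23Rik (chr12:36382152-36382431, minus strand) had a CpG-rich start with the NRF1 letters GCGCATGCG, here on the other strand. Spopl (chr2:23572075-23572354, minus strand) had a CpG-rich start with the ETS letters CCGGAAG. Kif26b (chr1:178528875-178529154, plus strand) had a CpG-rich start with a GC box (GGGCGG) and a CCAAT box, both on the other strand.
D630036H23Rik: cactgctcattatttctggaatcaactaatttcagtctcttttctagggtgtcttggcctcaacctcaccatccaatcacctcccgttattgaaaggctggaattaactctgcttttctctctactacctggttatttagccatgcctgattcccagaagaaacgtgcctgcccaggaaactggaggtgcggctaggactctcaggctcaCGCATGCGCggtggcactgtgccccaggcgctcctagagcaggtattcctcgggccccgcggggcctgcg
Spopl: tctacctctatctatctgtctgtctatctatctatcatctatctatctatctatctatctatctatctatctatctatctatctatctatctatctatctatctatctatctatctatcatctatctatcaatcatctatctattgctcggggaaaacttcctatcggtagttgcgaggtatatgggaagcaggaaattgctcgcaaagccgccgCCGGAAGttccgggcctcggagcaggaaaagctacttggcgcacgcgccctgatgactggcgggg
Kif26b: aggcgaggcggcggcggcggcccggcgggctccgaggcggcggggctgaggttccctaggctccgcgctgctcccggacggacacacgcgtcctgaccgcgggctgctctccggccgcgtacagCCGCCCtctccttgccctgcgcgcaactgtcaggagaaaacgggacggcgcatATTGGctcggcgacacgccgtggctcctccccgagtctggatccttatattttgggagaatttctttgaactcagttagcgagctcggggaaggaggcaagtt

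Bbx (chr16:50432361-50432640, minus strand) held TATAAA 40 to 20 bases before its start. Gm10800 (chr2:98667272-98667551, minus strand) was the strongest member with a start that was neither CpG-rich nor held TATAAA, and only 2 CG dinucleotides, in capitals, stand in its 280 bases. Because its level stood far apart from all others, the next gene of that class, Flrt2 (chr12:95691976-95692255, plus strand), is shown as well, a choice made after the values were seen. The last sequence is the stretch of 108 bases between the back-to-back starts of Nfya on the minus strand and Oard1 on the plus strand (chr17:48409906-48410013), with its 9 CG dinucleotides in capitals.
Bbx: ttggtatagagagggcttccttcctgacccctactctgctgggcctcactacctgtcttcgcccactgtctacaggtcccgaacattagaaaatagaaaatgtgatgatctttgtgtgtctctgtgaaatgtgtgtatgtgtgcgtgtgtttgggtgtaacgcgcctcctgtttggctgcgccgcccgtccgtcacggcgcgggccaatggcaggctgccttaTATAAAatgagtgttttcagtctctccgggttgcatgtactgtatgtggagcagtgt
Gm10800: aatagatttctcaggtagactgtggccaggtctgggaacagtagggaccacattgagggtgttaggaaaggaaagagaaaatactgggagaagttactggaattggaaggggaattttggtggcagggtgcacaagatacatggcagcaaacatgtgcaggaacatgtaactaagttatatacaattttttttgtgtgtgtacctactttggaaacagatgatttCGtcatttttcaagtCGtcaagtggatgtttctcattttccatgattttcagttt
Flrt2: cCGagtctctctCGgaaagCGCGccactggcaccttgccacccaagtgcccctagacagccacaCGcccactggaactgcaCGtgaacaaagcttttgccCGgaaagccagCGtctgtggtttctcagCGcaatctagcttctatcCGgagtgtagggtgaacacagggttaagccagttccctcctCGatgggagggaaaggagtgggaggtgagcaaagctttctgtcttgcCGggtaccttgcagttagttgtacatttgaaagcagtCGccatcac
Nfya and Oard1: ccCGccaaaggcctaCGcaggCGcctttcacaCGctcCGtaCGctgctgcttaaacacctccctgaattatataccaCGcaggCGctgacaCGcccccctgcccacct

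Levels were given in RPM, reads per 1000000 reads of the library, and were divided by region length wherever regions or genes are compared (RPM per kb). Library totals ran from 2163351 to 3039481 reads. The median member held 35 to 63 reads in a library, and no member was at 0 reads in any library. Over the members, the logged values of the Old replicates correlated at r = 0.888, the lowest of the 15 pairs of libraries, against 0.927 for the Young and 0.924 for the OldAcetate replicates. Median changes and numbers of calls over all members that involve Old are therefore also given without Old replicate 1. All 16 MSC markers had an H3ac region at a start site, while 79 of 96 markers of 7 other cell types had none. The marker lists were written with earlier results of these data known, so these counts do not test the labelled cell type. None of the 7 lists was of fibroblasts, so the counts cannot tell MSCs from these.

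The median length of members was 5500 bp, the same as over all regions, and that of promoter regions not shared by all groups was 3500 bp. Of the members, whose upper limit the rule set, 80% were between 3000 and 13000 bp in a full range of 1500 to 19500 bp, and together they covered 61.3 Mb of the 201 Mb in all regions. The start site lay inside the interval in 8841 members (99.2%) and within 1 kb outside it in 72. One gene started in 7463 members, 2 genes in 1301, 3 in 129, 4 in 17, 5 in 2 and 6 in 1. The member with 6 genes (chr7:30551001-30565000) held the starts of Hspb6, Igflr1, Lin37, Proser3, Psenen and U2af1l4, among them the gamma-secretase subunit gene Psenen and the DREAM complex gene Lin37. Its level was 60.5 and 63.3 RPM in the Young libraries, 41.1 and 44.5 in the Old and 58.1 and 47.1 in the OldAcetate libraries, with both Old libraries below the other 4. The 2 members with 5 genes were a histone gene cluster with Hist1h2ad, Hist1h2ae, Hist1h2bf, Hist1h2bg and Hist1h3d (3.09 RPM per kb) and a region with Bet1l, Gm45785, Odf3, Ric8a and Scgb1c1 (2.64 RPM per kb).

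The limits of the rule cut through a continuous range. The 45 members of 19500 bp, the longest admitted, had a median of 54.7 RPM and 2.81 RPM per kb. The 55 shared promoter regions of exactly 20000 bp, just outside, had 55.9 RPM and 2.79 RPM per kb. The 33 members whose nearest start lay 501 to 1000 bp away had a median of 14.3 RPM, and the 33 shared regions with a start 1001 to 1500 bp away had 11.6 RPM.

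H3ac reached farther into the gene than upstream of it. In the 6894 members with 1 gene and no divergent partner, the interval extended a median of 1688.5 bp upstream and 3005.5 bp downstream of the start, and it was longer downstream in 79.3%. CpG-rich and other starts were alike in this, with the downstream side longer in 81.0% of 5166 and 74.0% of 1728 members. In members with 2 genes in a divergent pair, the starts point away from each other and lie at most 1000 bp apart. There the medians were 2484 bp behind and 2292 bp ahead of 1155 starts, and the side ahead was longer in 44.1%. This near evenness follows from counting both starts of a pair, since what lies behind 1 start lies ahead of its partner. It is not a measure of how H3ac spreads at such pairs. The 654 shared promoter regions of 20 kb or more with 1 gene were far more one-sided in absolute length, with medians of 5067.5 bp upstream and 20996.5 bp downstream.

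**Figure D1:**
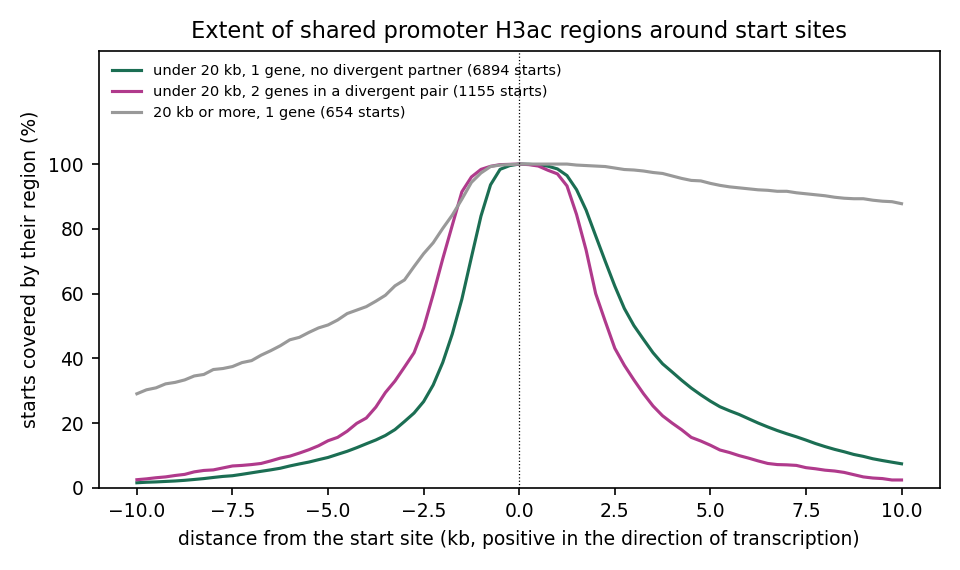
Percent of start sites whose H3ac region covers each distance from the start (x axis, kb, positive in the direction of transcription), for shared promoter regions under 20 kb with 1 gene (6894 starts), those with a divergent pair (1155 starts) and shared promoter regions of 20 kb or more with 1 gene (654 starts). The single-gene curve falls off more slowly on the downstream side, and the curve of the longer regions stays high to 10 kb downstream. The divergent curve is nearly even because both starts of a pair are counted.

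Members marked close to the common set of gene starts. Of 21886 protein-coding genes, 10243 had a start at a member, and for 9958 of them (45.5%) it was the representative start used for sequence, 1 per gene. A start was called CpG-rich when the ratio of observed to expected CG dinucleotides exceeded 0.6 and GC exceeded 50% within 500 bp to each side. By this measure 74.5% of member genes had a CpG-rich start, compared with 65.6% of genes at shared promoter regions of 20 kb or more, 61.0% of genes at promoter regions not shared by all groups, 12.9% of genes with no region and 46.0% of all genes. The median ratio was 0.745 for member genes and 0.218 for genes with no region. Of all starts, 73.8% of the 10060 CpG-rich starts lay at a member and 12.5% had no region, while 21.4% of the 11826 other starts lay at a member.

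**Figure D2:**
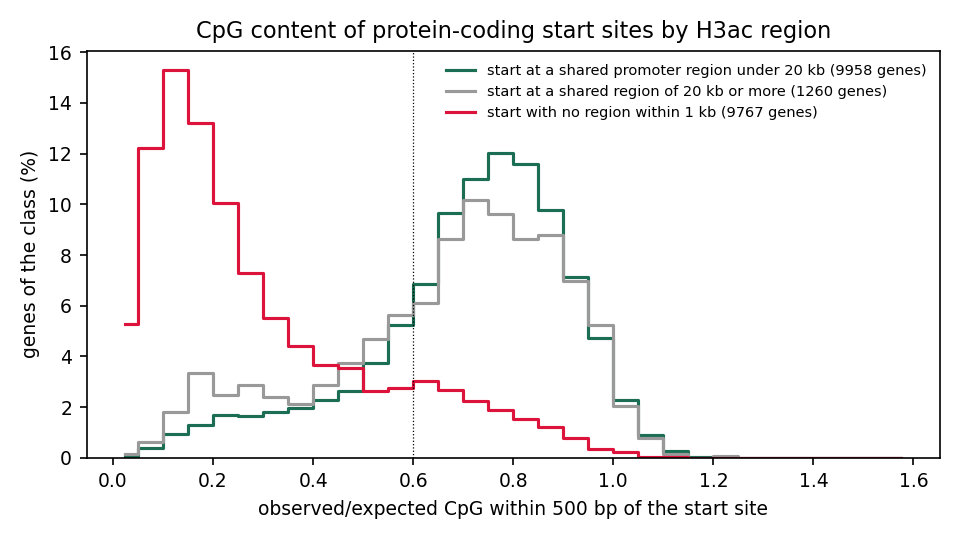
Distribution of the observed to expected ratio of CG dinucleotides within 500 bp of the start (x axis) as a percent of the genes of each class (y axis), for genes at shared promoter regions under 20 kb, at shared regions of 20 kb or more and with no region within 1 kb. The dotted line is the ratio of 0.6, with the bulk of the member genes to its right (median 0.745) and that of the genes with no region to its left (median 0.218).

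Most genes in divergent pairs started at a member. Of 1524 genes with a divergent partner, 84.4% had their start at a member, compared with 42.6% of the 20362 genes without one. Such genes made up 12.9% of member genes and 6.96% of all genes, and 0.809% of genes with no region. An example is the pair printed above, Nfya, a subunit of the CCAAT-binding factor NF-Y, and Oard1, an ADP-ribose hydrolase, whose shared member (chr17:48406501-48412500) held 35.9 and 32.3 RPM (Young), 29.6 and 26.6 RPM (Old) and 44.7 and 35.9 RPM (OldAcetate). All 6 values were high for its 6000 bp, at 5.69 RPM per kb on average, and both Old libraries were lowest.

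Motif letters were counted on both strands from 250 bases before to 50 bases after the representative start, and no motif's letters contain those of another, although matches may overlap in part. The GC box bound by Sp factors (GGGCGG) stood in 65.6% of member starts and 45.3% of all starts. The ETS letters (CCGGAAG) were in 18.7% against 11.2%, the NRF1 letters (GCGCATGCG) in 3.67% against 2.50%, the YY1 letters (AAGATGGCG) in 3.07% against 1.84%, the CRE letters (TGACGTCA) in 3.45% against 2.50% and the E-box (CACGTG) in 10.0% against 7.75%. The CCAAT box had nearly the same share, at 38.7% of member and 38.6% of all starts. The reverse order held for TATAAA, in 6.57% of member and 12.6% of all starts. When TATAAA was required to begin 40 to 20 bases before the start on the gene's strand, as in Bbx, the shares were 0.823% and 2.45%. Over all starts, letters of factors known for tissue-restricted or induced genes were also less frequent in members, with AP-1 (TGANTCA) at 4.42% against 6.68%, RUNX (TGTGGTT) at 3.79% against 4.95% and TEAD (ACATTCC) at 2.39% against 3.40%, and the interferon-response element was in 3.16% against 3.66%.

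When only CpG-rich starts were compared, some of these differences stayed and others turned. Among them the GC box was about as frequent in every class, at 73.9% of member, 76.4% of longer shared, 69.1% of not shared and 69.7% of starts with no region. The ETS letters stood in 21.7% of CpG-rich member starts, compared with 12.6%, 15.6% and 7.14% of CpG-rich starts in those other classes. For NRF1 the CpG-rich shares were 4.50% in members, 2.42% in longer shared, 4.73% in not shared and 1.74% with no region, so that members did not exceed the regions not shared. The YY1 letters stood in 3.73%, 2.18%, 4.91% and 1.59% in the same order, again highest in the regions not shared. The CRE letters were in 3.93%, 4.48%, 4.73% and 2.30%. For the E-box the order turned, with 10.9% of CpG-rich member starts and 12.6% of those with no region. It also turned for RUNX, at 2.91% and 2.06%, for TEAD, at 1.99% and 1.59%, and for the interferon-response element, at 2.45% and 1.98%. AP-1 stayed lower in members, at 3.25% and 3.81%, as did TATAAA, at 5.32% and 6.82%. Among starts that were not CpG-rich, the GC box stood in 41.1% of member starts and 13.6% of those with no region. There the ETS letters stood in 9.94% and 2.82%, the E-box in 7.34% and 4.07% and TATAAA in 10.2% and 21.5%. The NRF1 letters were even, at 1.22% and 1.23%. These are counts of letters over genes, with no test, and they do not show that a factor was bound.

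H3ac per kb was higher over members than over the other classes of region. The median over the 6 libraries was 3.17 RPM per kb for members, 2.78 for shared promoter regions of 20 kb or more, 2.60 for shared regions away from starts, 2.46 for promoter regions not shared and 2.70 for all regions. Members had to be called in every group and be under 20 kb, so the rule itself can favour this order. Lengths were not matched between the classes. Among members 80% lay between 2.40 and 4.23 RPM per kb. Shorter members were denser, with 3.34 RPM per kb in the 2988 members up to the lower quartile of length and 2.82 in the 2146 members above the upper quartile. Of the members at a representative start, the 6442 with a CpG-rich start had 3.23 RPM per kb, the 1972 without 3.03 and the 637 with a divergent pair 3.30. Members with no representative start are in none of these classes, here or in the changes below. Across members, density correlated with length at Spearman's rho = -0.30 and with the CpG ratio of the whole interval at 0.34, and since all of these are computed over the same intervals and libraries, they are descriptions.

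The densest member stood apart from all others. The region with Gm10800 and Gm10801 (chr2:98661501-98668000), a pair of predicted genes, held 183 and 301 RPM in Young, 374 and 329 RPM in Old and 257 and 323 RPM in OldAcetate. At 45.3 RPM per kb it was far above the next member, 45.5% of its bases were soft-masked as repeats in the reference compared with a median of 18.4% over members, and unlike most members it was lowest in a Young library and highest in an Old library. The part that repeated sequence plays in this level was not tested.

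The next 4 in density were genes of cell adhesion, signalling and transcription. Ptprg, a receptor tyrosine phosphatase, had 7.68 RPM per kb, with 56.9 and 51.5 RPM in the Young libraries, 43.0 and 44.5 in the Old and 57.5 and 46.3 in the OldAcetate libraries. Both Old libraries lay below the other 4, as they did in Magi2, a scaffold protein at cell junctions (7.19 RPM per kb), and Flrt2, a membrane protein of cell adhesion and axon guidance (6.58 RPM per kb). Lcorl, a DNA-binding protein gene linked to body size, had 7.25 RPM per kb and also had both Old libraries below both Young libraries, although Old replicate 1 lay above 1 OldAcetate library.

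The 5 sparsest members ranged from 6500 to 19000 bp in length. Rassf4, a RAS-association protein gene, had 1.66 RPM per kb over 12500 bp, with 27.6 and 18.0 RPM (Young), 19.9 and 23.1 RPM (Old) and 20.8 and 15.4 RPM (OldAcetate), and the 3 groups overlapped. Wasf2, an actin regulator, had 1.67 RPM per kb, the region with the starts of Olfr94, an olfactory receptor, and Ubd, a ubiquitin-like modifier, had 1.68 RPM per kb, and Fzd9, a Wnt receptor, had 1.71 RPM per kb. Dlk1, an imprinted gene that restrains adipocyte formation, had 1.70 RPM per kb across 19000 bp, with 36.2 and 27.8 RPM in Young, 32.8 and 29.0 RPM in Old and 32.3 and 35.5 RPM in OldAcetate and overlapping groups.

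Genes that nearly every cell uses had their starts in members. In 17 lists of housekeeping functions, 455 of 541 genes (84.1%) had a start at a member and 19 had no region, and the median density of a list's members ran from 2.85 to 3.42 RPM per kb, beside 3.17 for all members. In 7 lists of genes typical of other cell types, 13 of 96 genes (13.5%) had a start at a member and 79 had no region. The lists were chosen with earlier results of these data known, and the counts carry no test. Where a member holds the starts of several genes, its signal cannot be assigned to any 1 of them. Of the genes below, this also applies to Mrpl12 (with Slc25a10), Atp6v1a (with Naa50), Mcm2 (with Tpra1) and Pcna (with Tmem230). It applies as well to several genes named only as densest or sparsest, such as Lig1 (with Zswim9), Psmc2 (with Dnajc2) and Gtf2e1 (with Rabl3).

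**Figure D3:**
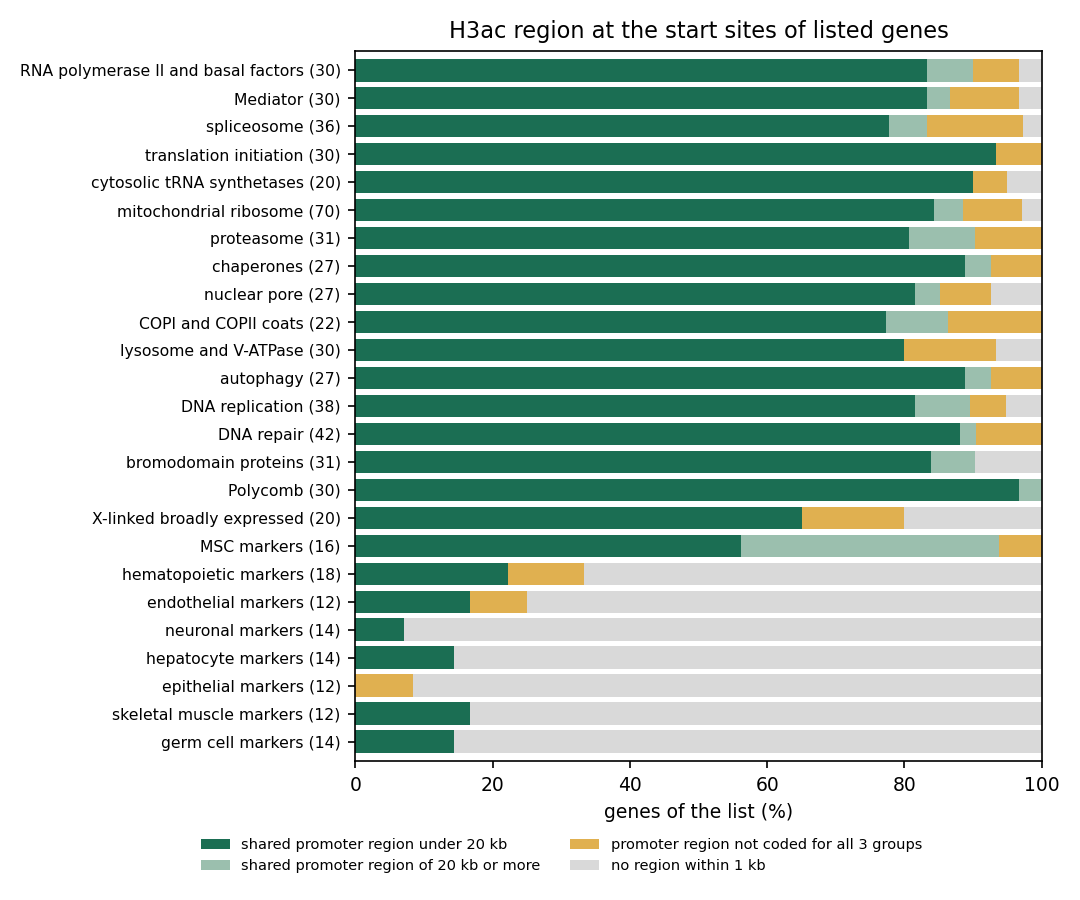
Percent of the genes of each list (x axis, number of genes in parentheses) whose start lies at a shared promoter region under 20 kb, at a shared promoter region of 20 kb or more, at a promoter region not coded for all 3 groups, or with no region within 1 kb. The bars of the 17 function lists are mostly dark, from 65.0% to 96.7%, those of the 7 lists of other cell types are mostly pale, and the MSC markers stand between them with 9 of 16 at members and 6 at longer regions.

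Most genes of the transcription machinery were at members. Of the 30 genes of RNA polymerase II and its basal factors 25 had a start at a member, and of the 30 Mediator genes, whose complex bridges activators and polymerase, 25 did. Polr2a, the largest polymerase subunit, shared its member with Slc35g3 and Zbtb4 and held 48.0 and 53.5 RPM in the Young libraries, 41.6 and 34.2 in the Old and 41.7 and 39.2 in the OldAcetate libraries. The Old and OldAcetate libraries all lay below both Young libraries and overlapped each other. Tbp, the TATA-binding protein, lies beside the proteasome gene Psmb1, and their common member held 29.0 and 27.8 RPM (Young), 18.0 and 24.7 RPM (Old) and 30.9 and 35.0 RPM (OldAcetate), lowest in Old and highest in OldAcetate with no overlap between groups. Within the list, Gtf2e1, a TFIIE subunit, was densest at 5.38 RPM per kb and Polr2e, a subunit shared by the nuclear polymerases, was sparsest at 2.06 RPM per kb. In Mediator, Med1, the subunit contacted by nuclear receptors, held 13.5 and 11.0 RPM in Young, 9.71 and 9.15 RPM in Old and 8.40 and 9.59 RPM in OldAcetate, with both old groups below Young. The X-linked Med12, of the kinase module, held 5.55 to 7.57 RPM with all groups overlapping. Med8 was the densest Mediator gene (4.62 RPM per kb) and Med27 the sparsest (2.17 RPM per kb).

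Splicing genes were found in members in 28 of 36 cases. Sf3b1, which recognises the branch site, held 15.8 and 17.6 RPM in the Young libraries, 17.6 and 15.5 in the Old and 17.5 and 16.7 in the OldAcetate libraries, and the groups were interleaved. Srsf3, a splicing factor of the SR family, was the sparsest of the list at 2.09 RPM per kb and held 15.5 and 14.3 RPM (Young), 15.3 and 16.7 RPM (Old) and 18.8 and 25.9 RPM (OldAcetate), so both OldAcetate libraries were above all others. Snrpd3, an Sm core protein of the snRNPs, was densest at 4.03 RPM per kb.

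Genes of translation were at members in high proportion. All 30 initiation factor genes had a promoter region, 28 of them a member. Eif4e, which binds the mRNA cap, held 44.7 and 42.5 RPM in Young, 36.5 and 33.0 RPM in Old and 45.7 and 43.8 RPM in OldAcetate, with Old below both other groups and those 2 groups overlapping. Eif3a, the largest subunit of eIF3, held 30.3 and 35.9 RPM in the Young libraries, 25.9 and 30.6 in the Old and 32.6 and 29.6 in the OldAcetate libraries with overlapping groups. Eif3m, another eIF3 subunit, was the densest of the list at 5.11 RPM per kb and held 22.4 and 20.4 RPM (Young), 12.9 and 13.1 RPM (Old) and 27.9 and 25.9 RPM (OldAcetate). No group overlapped another in Eif3m, with Old lowest and OldAcetate highest. Eif3g was the sparsest at 2.16 RPM per kb. Of the 20 cytosolic tRNA synthetase genes 18 were at members, with Lars densest (4.12 RPM per kb) and Iars sparsest (2.48 RPM per kb). Gars, which charges glycine tRNA, held 42.4 and 43.3 RPM in Young, 37.9 and 39.8 RPM in Old and 42.0 and 37.5 RPM in OldAcetate, both old groups below Young and overlapping each other. Kars, which charges lysine tRNA, shares its member with the telomere gene Terf2ip and held 31.3 and 35.9 RPM in the Young libraries, 24.0 and 19.5 in the Old and 31.6 and 24.6 in the OldAcetate libraries, Old below both other groups. Mitochondrial ribosomal proteins, which make the proteins coded by mitochondrial DNA, had 59 of 70 genes at members and 19 genes in divergent pairs. Mrpl12 of the large subunit held 27.3 and 27.8 RPM (Young), 19.9 and 20.7 RPM (Old) and 24.5 and 27.1 RPM (OldAcetate), with Old lowest, and the small-subunit gene Mrps16, whose member also holds Dnajc9, held 22.7 and 22.1 RPM in Young, 20.8 and 14.7 RPM in Old and 21.5 and 23.4 RPM in OldAcetate. Both Old libraries were below the other 4 in each. Mrps9 was the densest of that list (4.85 RPM per kb) and Mrps10 the sparsest (2.10 RPM per kb).

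Protein folding and turnover followed the same arrangement. Of 27 chaperone genes 24 were at members and of 31 proteasome genes 25, while Hsp90ab1 lay at a longer shared region and Psmc4 at a region not shared. Hspa8, the constitutive Hsp70, held 52.3 and 48.6 RPM in the Young libraries, 43.0 and 31.0 in the Old and 44.0 and 41.3 in the OldAcetate libraries, with both old groups below Young. Hsp90aa1, the inducible Hsp90, was the sparsest chaperone at 2.34 RPM per kb and Cct5, of the cytosolic chaperonin, the densest at 4.68 RPM per kb. Psmd14, the deubiquitinase of the proteasome lid, held 17.1 and 12.3 RPM (Young), 12.9 and 15.1 RPM (Old) and 18.1 and 14.2 RPM (OldAcetate) with all groups overlapping. Psmc2, a base ATPase, was the densest proteasome gene (4.30 RPM per kb) and Psma3, of the catalytic core particle, the sparsest (2.34 RPM per kb).

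Traffic through the nuclear pore and the secretory path was covered by 22 of 27 nuclear pore genes and 17 of 22 COPI and COPII coat genes. Nup153, of the nuclear basket, held 40.1 and 34.3 RPM in Young, 28.2 and 24.7 RPM in Old and 34.6 and 33.8 RPM in OldAcetate, and Nup98, whose member also holds Pgap2, held 22.0 and 21.6 RPM in the Young libraries, 18.5 and 14.3 in the Old and 18.8 and 20.4 in the OldAcetate libraries. Old was below both other groups in each. Nup88 was the densest pore gene (4.55 RPM per kb) and Ndc1, which anchors the pore in the membrane, the sparsest (2.14 RPM per kb). Copa, a COPI coat subunit, lies in a member with the gamma-secretase gene Ncstn and held 25.3 and 28.6 RPM (Young), 18.5 and 19.1 RPM (Old) and 26.5 and 23.4 RPM (OldAcetate). Sec23a, a COPII coat subunit that shares its member with the SMN complex gene Gemin2, was the densest of its list (4.69 RPM per kb) and held 47.0 and 40.4 RPM in Young, 32.4 and 33.4 RPM in Old and 48.4 and 37.5 RPM in OldAcetate. In both, the Old libraries were the lowest. Tmed2, a cargo receptor, was the sparsest (2.00 RPM per kb).

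Lysosome and V-ATPase genes, which acidify and run the degradative compartment, were at members in 24 of 30 cases and autophagy genes in 24 of 27. Atp6v1a, the catalytic V-ATPase subunit, held 46.4 and 38.8 RPM in the Young libraries, 38.4 and 29.8 in the Old and 43.0 and 43.4 in the OldAcetate libraries, and Lamp1, a lysosomal membrane protein, held 24.0 and 22.1 RPM (Young), 16.2 and 20.3 RPM (Old) and 22.5 and 23.4 RPM (OldAcetate). Old was below both other groups in each. Glb1, the lysosomal beta-galactosidase, was the densest of the list (4.39 RPM per kb) and Atp6v0a1 the sparsest (2.17 RPM per kb). Atg5, needed to extend the autophagosome membrane, held 23.0 and 20.0 RPM in Young, 13.4 and 18.7 RPM in Old and 26.2 and 16.3 RPM in OldAcetate, Old below Young and overlapping OldAcetate. Becn1, of the kinase complex that starts autophagosomes, was among the shallow members with 9 to 23 reads per library and held 5.26 and 7.35 RPM in the Young libraries, 4.16 and 7.16 in the Old and 7.73 and 8.34 in the OldAcetate libraries, where OldAcetate exceeded both other groups and Old overlapped Young. Pik3c3, the lipid kinase of that complex, was the densest autophagy gene (4.74 RPM per kb) and Atg101 the sparsest (2.14 RPM per kb).

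Genome maintenance genes were also at members, 31 of 38 for DNA replication and 37 of 42 for repair, where 15 of the 42 have a divergent partner. Mcm2, of the replicative helicase, held 33.2 and 27.0 RPM (Young), 23.6 and 22.3 RPM (Old) and 25.5 and 27.1 RPM (OldAcetate), Old lowest. Pcna, the sliding clamp, held 32.2 and 32.3 RPM in Young, 32.8 and 24.3 RPM in Old and 31.6 and 29.6 RPM in OldAcetate, where Old overlapped both other groups. Lig1, the ligase that joins Okazaki fragments, was the densest replication gene at 6.37 RPM per kb and Rpa1, which coats single-stranded DNA, the sparsest at 2.19 RPM per kb. Brca1, of homologous recombination, starts back to back with Nbr1 and held 18.4 and 13.5 RPM in the Young libraries, 17.6 and 10.3 in the Old and 20.5 and 16.3 in the OldAcetate libraries with overlapping groups. Parp1, which senses strand breaks, held 10.2 and 14.7 RPM (Young), 15.3 and 9.55 RPM (Old) and 15.8 and 16.3 RPM (OldAcetate), where OldAcetate lay above both other groups and those overlapped. Atm, the kinase of the double-strand break response, which shares a divergent start with Npat, was the densest repair gene (4.93 RPM per kb) and Rad52 the sparsest (2.25 RPM per kb).

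Readers and antagonists of acetylated chromatin were themselves marked. Of 31 bromodomain genes 26 were at members. Brd2, an acetyl-lysine reader of the BET family whose member also holds H2-DMa, held 42.4 and 50.2 RPM in Young, 43.0 and 37.4 RPM in Old and 46.7 and 40.04 RPM in OldAcetate with overlapping groups, and Brd3, of the same family, was the sparsest of the list at 1.81 RPM per kb, Atad2b being the densest at 5.34 RPM per kb. Polycomb genes, which maintain repression, had the highest share of all lists, 29 of 30. Ezh2, the H3K27 methyltransferase, held 33.9 and 34.7 RPM in Young, 35.6 and 22.7 RPM in Old and 32.9 and 35.0 RPM in OldAcetate with overlapping groups. Bmi1, of the complex that ubiquitinates histone H2A, shares its member with Commd3 and held 40.8 and 34.3 RPM in the Young libraries, 25.0 and 30.6 in the Old and 35.6 and 34.2 in the OldAcetate libraries, where Old lay below both other groups. Phc3 was the densest Polycomb gene (3.86 RPM per kb) and Cbx7 the sparsest (2.05 RPM per kb).

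The X chromosome had the lowest share among the function lists, with 13 of 20 broadly expressed X-linked genes at members. The 209 members on X had a median of 2.88 RPM per kb, compared with 3.18 for the 8704 autosomal members, and a median length of 4000 bp. Relative to the mean of the libraries after scaling, X members were lower in Young replicate 1, with a median deviation of -0.14 on the log2 scale, than in the other 5 libraries, where it ran from -0.03 to 0.10. Hprt, of purine salvage, held 15.8 and 12.7 RPM (Young), 10.2 and 9.15 RPM (Old) and 10.1 and 5.84 RPM (OldAcetate), and Young was highest with no overlap. Pgk1, of glycolysis, held 18.1 and 25.7 RPM in Young, 21.7 and 12.7 RPM in Old and 28.2 and 21.3 RPM in OldAcetate with overlapping groups. Ube2a was the densest (3.25 RPM per kb) and Msn, which links membrane and actin, the sparsest (2.12 RPM per kb) of the list.

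Genes that identify MSCs were split between compact and long domains. Of 16 MSC markers 9 were at members, 6 at longer shared regions, among them the receptor gene Pdgfra, and 1 at a region not shared. Alcam, an adhesion molecule, was the densest at 5.90 RPM per kb and held 46.7 and 38.0 RPM in the Young libraries, 33.7 and 21.5 in the Old and 34.9 and 37.5 in the OldAcetate libraries. Cxcl12, the chemokine that retains hematopoietic stem cells, held 39.5 and 32.7 RPM (Young), 32.8 and 30.2 RPM (Old) and 41.3 and 34.6 RPM (OldAcetate). Ly6a, which encodes Sca-1, held 48.4 and 35.1 RPM in Young, 39.8 and 31.4 RPM in Old and 48.1 and 41.7 RPM in OldAcetate, and Itgb1, the beta1 integrin, held 62.8 and 49.4 RPM in the Young libraries, 45.8 and 35.0 in the Old and 59.5 and 49.2 in the OldAcetate libraries. Old was below both other groups in Alcam and Itgb1, and it overlapped Young in Cxcl12 and Ly6a.

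Markers of other cells were mostly without a region. The hematopoietic list had 4 of 18 genes at members. Csf1r, the macrophage growth factor receptor, held 21.4 and 19.2 RPM (Young), 15.3 and 9.94 RPM (Old) and 11.4 and 14.6 RPM (OldAcetate), and both old groups were below Young. Fcer1g held 15.1 and 10.6 RPM in Young, 10.6 and 8.35 RPM in Old and 7.39 and 12.1 RPM in OldAcetate and the groups overlapped. The erythroid factor gene Klf1 held 6.25 and 12.3 RPM in the Young libraries, 6.47 and 7.56 in the Old and 5.71 and 6.67 in the OldAcetate libraries, with 1 Young library above the rest. Cd68 lies in a member with Eif4a1 and Mpdu1, so its signal cannot be assigned to it alone. Ptprc, Itgam, Spi1, Adgre1, Tyrobp and Lyz2 had no region. Of the endothelial list Erg (3.45 RPM per kb) and Esam (3.30 RPM per kb) were at members, each with both Old libraries below both Young libraries, and Pecam1, Cdh5, Tek and Kdr had no region. The neuronal list had 1 member, Map2, at 2.13 RPM per kb, although 8 of its 14 genes have a CpG-rich start, and the germ cell list had Dazl and Tex14, the latter in a divergent pair with the repair gene Rad51c, although 7 of its 14 genes have a CpG-rich start. The hepatocyte genes Fgb and Apoa2 and the muscle genes Mylpf and Actn3 each shared a member with a neighbour, Plrg1, Tomm40l, Tbc1d10b and Zdhhc24, respectively. No epithelial marker was at a member.

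Members took up less of the Old libraries. They held 21.9% and 20.0% of the reads of the Young libraries, 16.9% and 16.1% of the Old reads and 20.6% and 19.7% of the OldAcetate reads. The median member had 20.7 and 19.2 RPM in Young, 16.2 and 15.5 RPM in Old and 19.8 and 18.8 RPM in OldAcetate. Both Old values were below the other 4, and the Young and OldAcetate values overlapped. The group means of this median were 20.0 ± 1.08 RPM for Young, 15.8 ± 0.472 RPM for Old and 19.3 ± 0.747 RPM for OldAcetate (SD, n = 2), so that Old was at 79.4% and OldAcetate at 96.7% of Young. RPM is relative to the whole library, of which all regions together held 57.8% to 64.8% (Young), 45.9% to 49.9% (Old) and 56.3% to 57.3% (OldAcetate). In bulk chromatin fewer cells with a mark and less mark per cell cannot be told apart. Whether the Old libraries had lower enrichment or more background reads was not tested, and RPM does not separate this from a lower level of the mark.

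**Figure D4:**
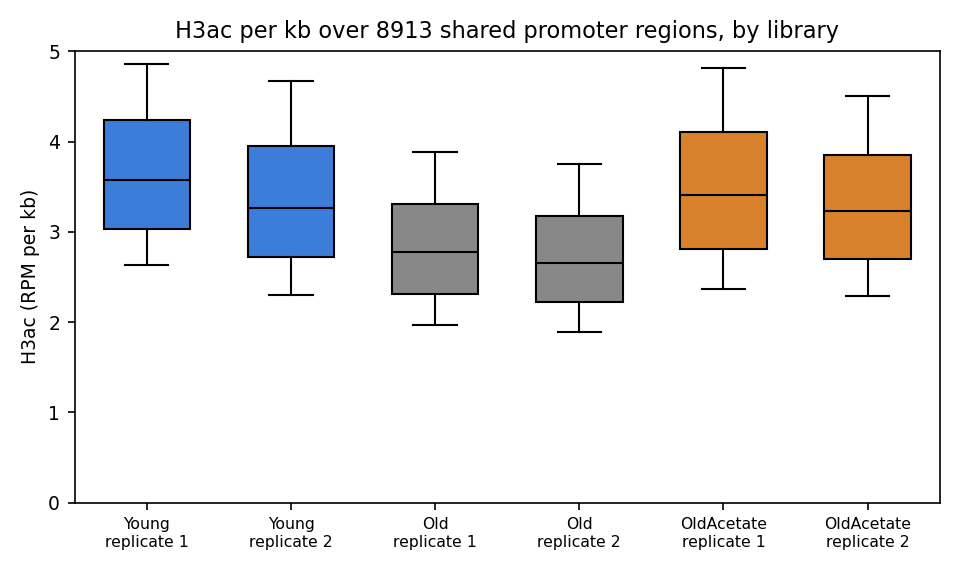
H3ac in RPM per kb (y axis) over the 8913 shared promoter regions in each library (x axis). Boxes run from the lower to the upper quartile of the regions with the median as a line, and whiskers from percentile 10 to percentile 90. The medians are 3.58 and 3.27 for Young, 2.77 and 2.65 for Old and 3.40 and 3.23 for OldAcetate.

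The lower level in Old was seen in most members. With the values as given, the median log2 change over members from Young to Old was -0.34, compared with -0.35 over all regions, and 7.05% of members and 7.85% of all regions had a change above 0. Without Old replicate 1 it was -0.36. Both Old libraries were below both Young libraries in 5548 members (62.2%; all regions 60.2%) and above them in 111 (1.25%; all regions 1.29%). limma fitted over all regions called 719 members at an adjusted p under 0.05, all lower in Old, which is 8.07% beside 9.52% of all regions. The calls rose with length and so with read depth, from 2.48% of members up to the lower quartile of length to 16.7% of those above the upper quartile, whereas the median change was -0.32 and -0.35 in these. CpG-rich starts and others had the same median of -0.34, and members with a divergent pair did too. The number of calls ranged from 0 without Young replicate 1 and 188 without OldAcetate replicate 1 to 946 without Old replicate 1, and it was 200 without Old replicate 2 and 220 without OldAcetate replicate 2.

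With acetate the members moved up. From Old to OldAcetate the median log2 change was 0.29 over members and 0.24 over all regions, and 89.3% of members and 83.2% of all regions had a change above 0. Without Old replicate 1 the members' median was 0.31. Both OldAcetate libraries were above both Old libraries in 4979 members (55.9%; all regions 47.1%) and below them in 177 (1.99%; all regions 3.46%). limma called 32 members, all higher with acetate, which is 0.359% beside 0.311% of all regions. edgeR on the recovered reads called 8 (0.0898%; all regions 0.086%). Leaving out a library gave 0 without OldAcetate replicate 1 and 0 without OldAcetate replicate 2, and 56 to 170 without any one of the others, the most without Old replicate 1.

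Over members, whose code requires a call in every group, H3ac of acetate-treated old cells was close to that of young cells. The median log2 change from Young to OldAcetate was -0.05 over members and -0.11 over all regions. Both OldAcetate libraries were below both Young libraries in 1961 members (22.0%; all regions 29.8%) and above them in 984 (11.0%; all regions 7.6%). limma called 0 members and 0% of all regions with the values as given, with 295 members at an unadjusted p under 0.05 (3.31%; all regions 6.10%). edgeR also called 0 members and 0% of all regions, with 382 members at that level (4.29%; all regions 7.96%). These 3 comparisons share libraries, so their values are not independent of one another. The other promoter class that the code defines, the 928 promoter regions not shared by all groups, had medians of -0.57, 0.43 and -0.15 in the same order of comparisons, and there the code itself selects for such differences. For members the code selects against differences between groups, so their closeness is in part set by the rule.

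**Figure D5:**
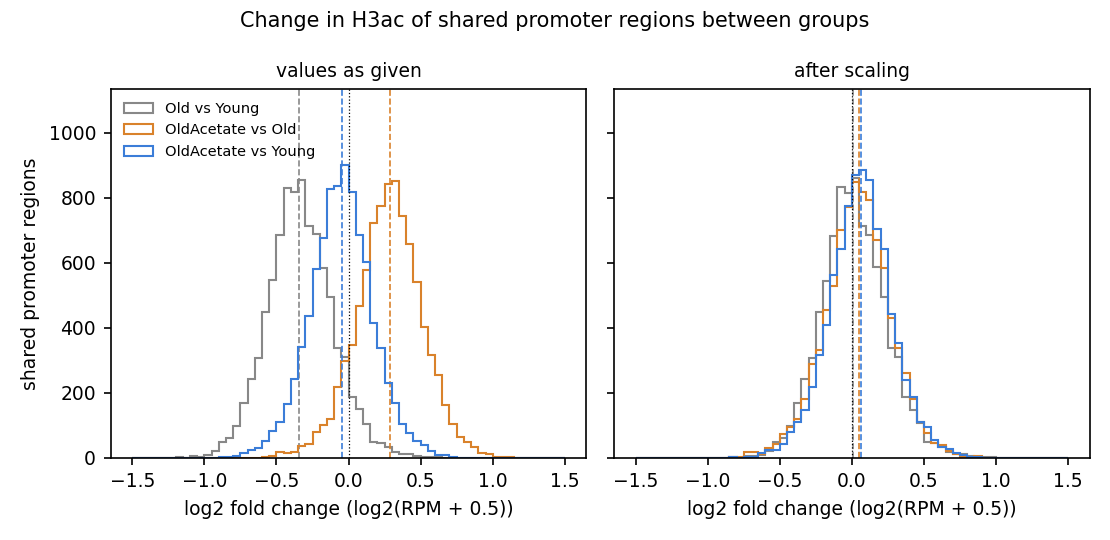
Number of shared promoter regions (y axis) by log2 fold change on the log2(RPM + 0.5) scale (x axis) in the 3 comparisons, with values as given on the left and after scaling each library on the right; dashed lines are medians. As given the medians are -0.34, 0.29 and -0.05, and after scaling they are 0.01, 0.05 and 0.06.

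After scaling, which subtracts from each library its median deviation over all regions and so removes a shift common to them, no member passed the test. The median log2 changes over members were 0.01 for Old vs Young, 0.05 for OldAcetate vs Old and 0.06 for OldAcetate vs Young, with 0.00 over all regions in the last 2 and -0.00 in the first. Without Old replicate 1 the first 2 were 0.05 and 0.01. limma called 0 members in each comparison, beside 0.00819%, 0% and 0% of all regions, and the numbers at an unadjusted p under 0.05 were 405, 464 and 407 members (4.54%, 5.21% and 4.57%), beside 5.54%, 6.24% and 5.08% of all regions. edgeR also called 0 members in each, beside 0.0205%, 0% and 0% of all regions, with 364, 392 and 561 members at an unadjusted p under 0.05 (4.08%, 4.40% and 6.29%) beside 5.19%, 5.34% and 6.76% of all regions. In OldAcetate vs Old the scaled medians were 0.06 for members with a CpG-rich start and 0.01 for those without, and 0.07 for those with a divergent pair. The pooled replicate SD of 0.03 is that of the median of all members, not of these classes. The median deviation of Old replicate 1 was -0.04 with a CpG-rich start and 0.01 without, whereas that of Old replicate 2 was 0.03 and 0.02. The order of the 2 classes thus turned between the Old replicates, and these class medians are not given without Old replicate 1.

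Single members with the lowest p after scaling included genes of transcription and stress response, none past the threshold. Tead4, the DNA-binding partner of YAP and TAZ, held 73.0 and 57.6 RPM (Young), 33.7 and 35.8 RPM (Old) and 49.4 and 50.9 RPM (OldAcetate), with Old lowest, OldAcetate between and no overlap. Its scaled log2 change in Old vs Young was -0.54 (SE 0.14, adjusted p = 0.463, limma). Ubp1, a transcription factor of the grainyhead group, went the other way, with 34.9 and 28.6 RPM in Young, 37.0 and 39.8 RPM in Old and 31.9 and 30.0 RPM in OldAcetate and a scaled change of 0.63 (SE 0.16, adjusted p = 0.463, limma). As given, its Old libraries were above all others by a change of 0.28 from Young.

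With acetate, Oxr1, which protects against oxidative damage, held 19.1 and 19.6 RPM in the Young libraries, 9.24 and 11.5 in the Old and 26.5 and 20.4 in the OldAcetate libraries, lowest in Old and highest in OldAcetate. Its scaled change in OldAcetate vs Old was 0.90 (SE 0.23, adjusted p = 0.375, limma).

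The lowest p in OldAcetate vs Young were those of Yy1, whose product binds the YY1 letters counted above, with 34.9 and 19.6 RPM (Young), 25.4 and 28.6 RPM (Old) and 39.7 and 41.3 RPM (OldAcetate), and of the member with the Hsp90 co-chaperone gene Ahsa1 and Vipas39, with 22.4 and 19.2 RPM in Young, 18.0 and 17.5 RPM in Old and 29.2 and 35.0 RPM in OldAcetate. Both OldAcetate libraries exceeded all others in each. The scaled changes were 0.73 (SE 0.18) and 0.73 (SE 0.19), with adjusted p = 0.79 and 0.851 in limma.

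Across the function lists, members followed the common shift. With the values as given, limma called 27 of the 451 member regions of the 17 lists lower in Old than in Young (5.99%, all regions 9.52%), and their median log2 change was -0.31. It called 3 of them higher in OldAcetate than in Old (0.665%, all regions 0.311%), namely Eif3m, the member of the tyrosyl-tRNA synthetase gene Yars and S100pbp, and the member of Ahsa1 and Vipas39. By number, the most calls in Old vs Young were in Polycomb (6 of 31 regions) and lysosome and V-ATPase (4 of 24). The spliceosome had 3 of 28, the proteasome 3 of 25 and the mitochondrial ribosome 3 of 59. These lists differ in size and in region length, with which calls rose. The median length was 7000 bp for Polycomb and 4000 bp for the mitochondrial ribosome, beside 5500 bp over all members. After scaling no list member was called, and the median change of a list ran from -0.03 to 0.16 between Young and Old, from -0.04 to 0.13 between Old and OldAcetate, and from -0.07 to 0.18 between Young and OldAcetate.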

How the data were processed

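H3ac CUT&RUN libraries from 6 MSC cultures, 2 each of Young, Old and OldAcetate as the labels group them, were analysed from 1 deposited table of 24431 regions. Per the submitters' processing notes, Bowtie2, Picard and mm10 were used. The region caller, whether libraries were pooled for it, and any use of the yeast DNA added in the protocol are not given in the sources used here. The paper read for style describes another experiment, so no method was taken from it. The authors deposited RPM values (reads per 1000000 library reads, in columns named as RPKM but not divided by length), and 100% of them were whole multiples of 1 read (tolerance 0.01), from which reads and totals of 2163351 to 3039481 per library were recovered. Counting error at these depths is only part of the spread, and intervals were not used.

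Members, gene lists and named genes were chosen with earlier results of these data known. Start sites came from GENCODE M21, with 1 APPRIS-preferred start per gene for sequence features, and sequence from RefSeq GRCm38.p6. In R 4.3.3, limma 3.58.1 was fitted to log2(RPM + 0.5) of all regions, a scale that understates changes of low regions, with trend and robust eBayes and a Benjamini-Hochberg threshold of 0.05 over all regions. Fits were made after subtracting each library's median deviation and, as an alternative, on values as given. edgeR 4.0.16 (quasi-likelihood) was run on the recovered reads. The fit was tested on simulated data. Named genes were the list examples, the extremes of density overall and per list, members with the most genes, the 2 lowest p per comparison and, for cell type lists, all members up to 6 or else the 3 densest. Results at 2 members so named are not reported here. Alternatives were other pseudocounts, scalings, filters and start-site definitions, a replicate block and leaving out each library. edgeR and leaving out libraries for values as given were added after seeing the data. Figures used matplotlib 3.10.9 in Python 3.11.15.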

Additional observations from a re-analysis of the deposited data

How the results depend on the processing

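The number of members called after scaling was 0 in each comparison and stayed 0 with pseudocounts of 0.1 and 1, quantile normalization, the lowest 25% of regions removed, the replicate block and edgeR. Without scaling it was 719 for Old vs Young, 32 for OldAcetate vs Old and 0 for OldAcetate vs Young. The scaling removes a shift shared by all regions by construction. Leaving out 1 library gave 0 to 1 scaled calls in each comparison. The calls were the Gm10800 and Gm10801 region without either Young library and, without Old replicate 2, Smc5 in OldAcetate vs Old. Smc5 held 6 reads in Old replicate 1 and 27 to 49 in the other libraries, and was picked out after its values were seen.

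With the values as given, edgeR called 757 members between Young and Old (8.49%; all regions 10.3%) and 8 between Old and OldAcetate (0.0898%; all regions 0.086%), and leaving out 1 library gave 0 to 946, 0 to 170 and 0 to 1 calls in the 3 comparisons. The median changes as given kept their direction without any 1 library in Old vs Young (-0.40 to -0.28) and in the acetate comparison with Old (0.25 to 0.32) but not in that with Young (-0.12 to 0.0053, the latter without Young replicate 1). The scaled medians then ran from -0.013 to 0.049, from 0.0078 to 0.070 and from 0.036 to 0.084, and other pseudocounts, quantile normalization, the mean and autosomal members moved no median by more than the replicate SD. Same-numbered libraries did not visibly deviate together (correlations of 0.01, -0.04 and -0.03). Counting error weighs on these differences at the depths used, so the check cannot settle whether the replicate numbers pair the libraries. The replicate block left the scaled medians at 0.01, 0.05 and 0.06.

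Other start-site and length rules gave 6980 to 9191 members and median densities of 3.15 to 3.27 RPM per kb. The share of member genes with a CpG-rich start was 69.8% with a window of 300 bp and 74.1% at the 5′-most start. The cause of these movements was not tested. With 35 to 63 reads in the median member and 2 libraries a group, counting error limits the value of a single member, and whether the Old pair's lower likeness is technical was not tested.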

Other observations

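Genes of the Zfp zinc finger family, a group chosen after the values were seen, were dense among members. The 277 members with a Zfp gene start had a median of 3.43 RPM per kb, compared with 3.16 in the other 8636 members, and 18.4% of them were at or above percentile 90 of density, compared with 9.74%. Their medians were 3.68 and 3.59 RPM per kb for Young, 3.04 and 2.89 for Old and 3.81 and 3.50 for OldAcetate, above those of the other members in each library.

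Members were spread over all chromosomes, from 29.4% of the regions on chromosome 13 to 51.2% of those on X. The median density of autosomal members ran from 2.98 RPM per kb on chromosome 11 to 3.35 RPM per kb on chromosome 1.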
